A study of Mus musculus with 2 samples.

Results

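The 9 genes described here carry out or switch on antigen presentation by major histocompatibility complex (MHC) class I. They are the heavy chains H2-D1 and H2-K1, the light chain B2m, the peptide transporter subunits Tap1 and Tap2, the loading factor Tapbp, the immunoproteasome subunits Psmb8 and Psmb9, and the transcriptional activator Nlrc5. They were taken by symbol from the 32285 genes in the deposited gene list, and all 9 were found once. Single-nucleus RNA-seq was made from the spinal cords of C57BL/6 mice, 6 to 8 weeks old, killed 7 days after a contusion at thoracic level 10. AEVs mice received extracellular vesicles derived from athletes, at 100 µg of vesicle protein in 100 µL of PBS, by tail vein daily for 5 days. PBS mice received the same volume of PBS alone on the same days. Both groups therefore carried the injury, the anaesthesia, the antibiotics and the injections, and uninjured cord was not analysed here. Each group is 1 library made from 3 pooled mice, so no difference below has a replicate check and none was tested. A change in the RNA per nucleus and a change in the mix of nuclei inside a class cannot be told apart from sums alone.

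Class I molecules are assembled in the endoplasmic reticulum from a heavy chain, beta-2-microglobulin and a short peptide. The proteasome, or its interferon-induced form with the Psmb8 and Psmb9 subunits, cuts the peptide from cytosolic proteins, the TAP transporter carries it across the membrane, and tapasin (the product of Tapbp) holds the empty heavy chain beside the transporter while peptide is loaded. The finished complex is read at the cell surface by CD8 T cells and natural killer cells. In the healthy nervous system class I is low in most neurons and glia and high in microglia and vessels, and it is raised by interferons and by nerve injury, including in motor neurons. NLRC5 is the transactivator that acts at the promoters of these genes through the factors bound to their S, X and Y boxes.

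The heavy chain genes H2-D1 and H2-K1 sit on chromosome 17 with Tap1, Tap2, Tapbp, Psmb8 and Psmb9. B2m is on chromosome 2 and Nlrc5 on chromosome 8. On mm10 (GENCODE M21) H2-D1 spans chr17:35262730-35267499 on the plus strand, H2-K1 spans chr17:33996017-34000347 on the minus strand, and B2m spans chr2:122147686-122153083 on the plus strand. Promoter sequence from RefSeq (GRCm38.p6, the same build) was matched for 7 of the 9 genes, as windows of 300 bases that run from 250 bases before the start to 50 after it; Tap2 and Nlrc5 had no entry. Parts of 3 promoters are shown because the heavy chains and B2m carry the largest counts here and share an arrangement of motifs. Capitals mark the motifs that were searched for: GGGATTCCC (kappa-B type), TTTCACTTC (the interferon response type of the heavy chains), GAAANNGAA (a general interferon response type), and TGACG followed after 20 bases by ATTGG (X2 and Y boxes, the pair in the enhanceosome that NLRC5 joins). The H2-D1 stretches lie at chr17:35262924-35262952 and chr17:35262993-35263022, the H2-K1 stretch at chr17:34000348-34000547 and the B2m stretch at chr2:122147487-122147686, each written 5′ to 3′ on its gene's strand. RefSeq sets the start of H2-D1 inside the GENCODE span, so both H2-D1 stretches lie before the RefSeq start but within that span.
H2-D1, first stretch: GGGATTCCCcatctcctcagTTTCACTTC
H2-D1, second stretch: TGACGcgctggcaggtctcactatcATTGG
H2-K1: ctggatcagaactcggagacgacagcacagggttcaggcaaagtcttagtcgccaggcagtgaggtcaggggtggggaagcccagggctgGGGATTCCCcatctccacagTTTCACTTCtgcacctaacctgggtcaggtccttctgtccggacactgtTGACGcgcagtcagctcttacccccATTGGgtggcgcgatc
B2m: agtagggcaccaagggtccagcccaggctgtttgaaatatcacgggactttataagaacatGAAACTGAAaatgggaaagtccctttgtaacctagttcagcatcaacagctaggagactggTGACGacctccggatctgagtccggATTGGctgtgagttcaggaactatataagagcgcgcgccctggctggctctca
The spaced TGACG and ATTGG pair was present in the windows of H2-D1, H2-K1 and B2m and in 31 of all 32851 promoter windows (0.0944%), with both strands searched. TTTCACTTC was in the windows of both heavy chains and in 166 of all windows (0.505%), and GGGATTCCC was in the same 2 genes and in 116 of all windows (0.353%). GAAANNGAA was found in the B2m window alone among the 7 and in 2812 of all windows (8.56%). ATTGG alone, which overlaps the spaced pair, was in 6 of the 7 windows but also in 37.4% of all windows. These matches describe letters in a window and say nothing of binding.

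The AEVs library held 15549 nuclei after filtering and the PBS library 14023, with medians of 2400 and 2600 unique molecular identifiers (UMIs, each a counted RNA molecule) per nucleus. Levels are UMIs of a gene scaled to 1000000 UMIs of the class and library (CPM), with exact Poisson 95% intervals; ratios are log2 of AEVs over PBS with exact conditional binomial 95% intervals, and shares carry Clopper-Pearson intervals. All of these intervals cover counting error only. Nuclei were clustered without the 9 genes and named by marker genes, and 10 of the resulting classes held 100 nuclei or more per library. Each is called "-like" because the names were rebuilt here. 146 of the kept barcodes occurred in both libraries, 40 of them in the same class, and leaving them out kept each of the 11 summed ratios (all nuclei and the 10 classes) within its counting interval. The 82 ribosomal protein genes were higher in the AEVs library by 0.47 (log2) over all nuclei and by 0.02 to 0.66 in the 10 classes, and 103 AEVs barcodes against 527 PBS barcodes held 5% or more mitochondrial UMIs. The part that these library differences play in the ratios below was not tested. Because the H2-D, H2-K and H2-Q genes are close copies of each other, reads may have been split between them in a way the deposited counts do not show. Sharing of reads with the H2-T genes was not examined.

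Class I RNA was found in every class, and its level differed far more between cell classes than between the libraries. Over all nuclei the 9 genes summed to 571 CPM (AEVs) and 530.2 CPM (PBS), a log2 ratio of 0.11 (0.09 to 0.13) that was -0.00900 as a mean over nuclei and -0.00313 when nuclei were thinned to equal depth. Summed over the 9 genes, T or NK cell-like nuclei held the most, at 9928 CPM (AEVs) and 11491 CPM (PBS), although they numbered only 30 and 137. Microglia-like nuclei held 4923 CPM (AEVs) and 4314 CPM (PBS). Lipid-loaded phagocyte-like nuclei, named by markers such as Gpnmb and Spp1, held 4417 CPM (AEVs) and 3197 CPM (PBS). Lipid content and uptake of myelin were not measured. Macrophage-like nuclei held 3364 CPM (AEVs) and 3390.4 CPM (PBS). They stood below lipid-loaded phagocyte-like nuclei in AEVs and above them in PBS, where the intervals of these classes overlapped. Endothelial-like nuclei followed with 2318 and 2439 CPM. Astrocyte-like, fibroblast-like and Schwann-like nuclei formed a middle group between 936 and 1248 CPM in both libraries. Oligodendrocyte precursor-like nuclei held 576 CPM (AEVs) and 396 CPM (PBS), oligodendrocyte-like nuclei 401 and 336 CPM, and neuron-like nuclei the least, at 152 CPM (AEVs) and 149.9 CPM (PBS). The immune classes thus stood far above the neuron-like class in CPM, yet neuron-like nuclei, being many and deeply sampled, supplied 16.5% (AEVs) and 17.5% (PBS) of all class I UMIs. Microglia-like nuclei supplied 20.3% (AEVs) and 17.3% (PBS), and lipid-loaded phagocyte-like nuclei 20.4% and 18.8%.

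**Figure D1:**
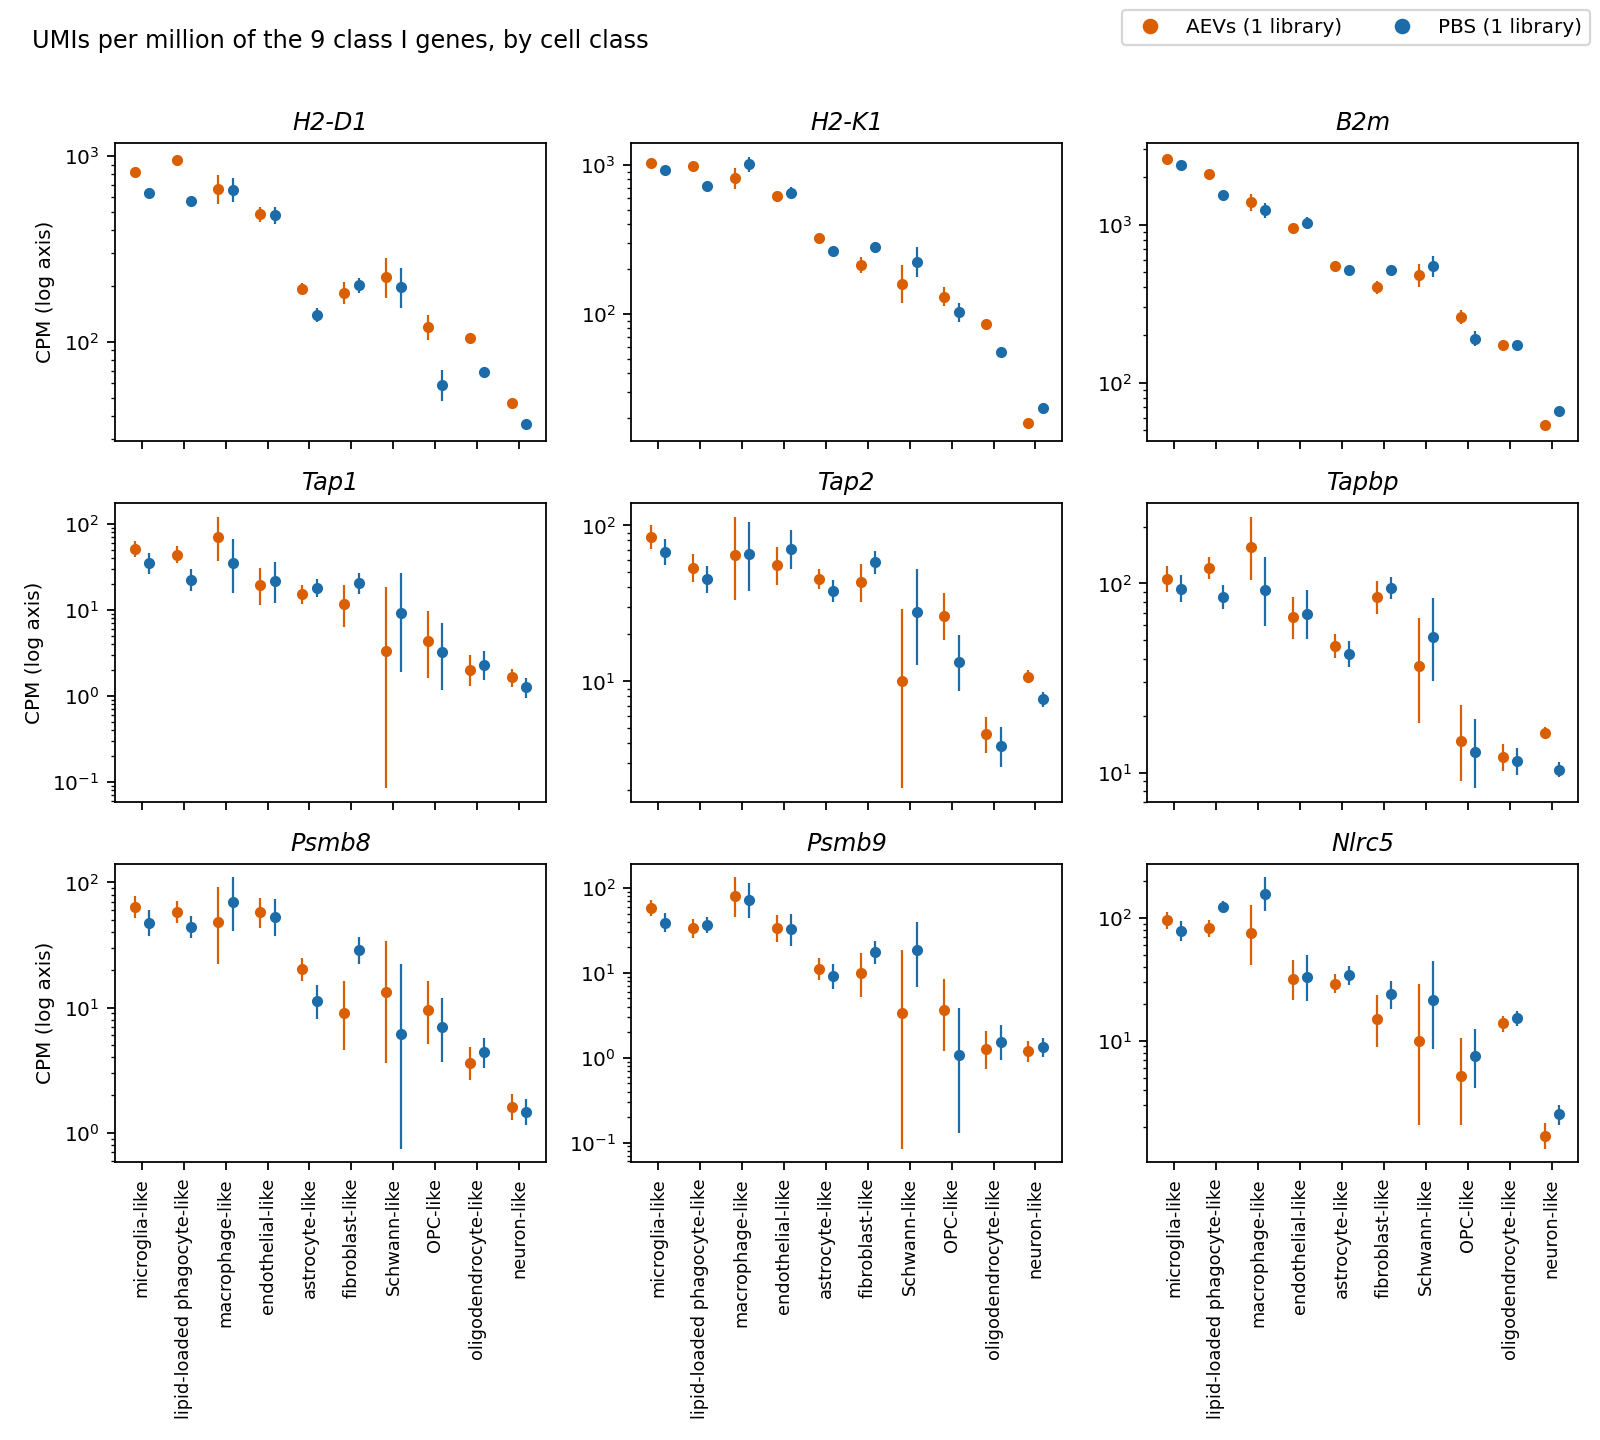
Level of each of the 9 genes in CPM (log axis) in the 10 cell classes, with AEVs at left in orange and PBS at right in blue within each class; bars are exact Poisson 95% intervals from 1 library per group, and OPC-like stands for oligodendrocyte precursor-like. Immune classes stand at the top and neuron-like nuclei near the bottom for most genes, and the gap between classes is wider than the gap between libraries.

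H2-D1, one of the 2 classical heavy chains, had the highest ratio of the 9 over all nuclei. Over all nuclei it stood at 124 CPM (AEVs, 8435 UMIs) against 95.5 CPM (PBS, 6983 UMIs), a log2 ratio of 0.37 (0.33 to 0.42). None of the 9 genes passed 1.5-fold over all nuclei, beside 12.5% of all genes higher by that fold in the AEVs library and 6.11% lower. Lipid-loaded phagocyte-like nuclei held 951 CPM (906 to 997) in the AEVs library against 572 CPM (541 to 604) in the PBS library, a log2 ratio of 0.73 (0.63 to 0.84). That class ranked second for H2-D1 among the 12 named classes in the AEVs library; in the PBS library it ranked lower, with an interval that overlapped that of microglia-like nuclei. Oligodendrocyte precursor-like nuclei held 120 CPM (AEVs, 163 UMIs) against 58.4 CPM (PBS, 109 UMIs), a log2 ratio of 1.04 (0.68 to 1.40), the highest for this gene among the 10 classes. Oligodendrocyte-like nuclei held 105 CPM (AEVs) against 69.0 CPM (PBS), a ratio of 0.60 (0.48 to 0.73), astrocyte-like nuclei 194 against 140 CPM, a ratio of 0.47 (0.31 to 0.63) that was -0.14 in nuclei free of phagocyte and microglia marker UMIs, and microglia-like nuclei 819.6 against 638 CPM, a ratio of 0.36 (0.24 to 0.48). Neuron-like nuclei held 47.0 against 36.2 CPM, a ratio of 0.38 (0.28 to 0.47). In macrophage-like, endothelial-like, Schwann-like and fibroblast-like nuclei the interval of the H2-D1 ratio included 0, with values of 0.01, 0.02, 0.18 and -0.14.

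H2-K1, the other classical heavy chain, did not follow H2-D1 in every class. Over all nuclei it stood at 121 CPM (AEVs) against 117 CPM (PBS), a log2 ratio of 0.05 (0.00 to 0.09). Its AEVs level was the higher one in oligodendrocyte-like nuclei, at 85.6 against 55.8 CPM with a ratio of 0.62 (0.48 to 0.76), and in lipid-loaded phagocyte-like nuclei, at 983 against 718 CPM with a ratio of 0.45 (0.35 to 0.55). The AEVs level was also higher in astrocyte-like nuclei, at 322 against 265 CPM (ratio 0.28), and in microglia-like nuclei, at 1023 against 918 CPM (ratio 0.16). In oligodendrocyte precursor-like nuclei the ratio was 0.35. H2-K1 was lower in neuron-like nuclei, at 18.5 CPM (AEVs) against 23.2 CPM (PBS), with a ratio of -0.33 (-0.47 to -0.20), and in fibroblast-like nuclei, at 214 against 283 CPM, with a ratio of -0.40 (-0.61 to -0.19). In macrophage-like, Schwann-like and endothelial-like nuclei the ratios were -0.31, -0.49 and -0.07, with CPM intervals that overlapped between the libraries. That overlap is not the interval of the ratio and does not place a ratio within counting error. Under the alternative settings the ratios ran from -0.69 to -0.24, -0.80 to 0.01 and -0.13 to -0.04 in that order. The balance of the heavy chains is therefore a value of each class. Of all H2-D1 and H2-K1 UMIs together, H2-D1 made up 71.8% (70.1 to 73.5) in AEVs neuron-like nuclei and 60.9% (59.0 to 62.7) in PBS neuron-like nuclei, the highest shares of any class in either library. The Nrg1 and Grip1 cluster described below supplied 413 of 1053 neuron-like H2-K1 UMIs in PBS and 45 of 776 in AEVs. For H2-D1 it supplied 385 of 1640 (PBS) and 79 of 1978 (AEVs). The shares without that cluster were not computed. T or NK cell-like nuclei had the lowest H2-D1 share, at 28.7% (AEVs) and 28.0% (PBS). Oligodendrocyte-like nuclei held 55.1% (AEVs) and 55.3% (PBS) while both heavy chains were higher in the AEVs library, and lipid-loaded phagocyte-like nuclei held 49.2% (47.5 to 50.8, AEVs) and 44.3% (42.5 to 46.1, PBS). Adding the H2-Q genes, whose reads could be shared with these heavy chains, gave a ratio of 0.16 over all nuclei against 0.20 for H2-D1 and H2-K1 alone, and left the sum of each of the 10 classes within its counting interval.

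**Figure D2:**
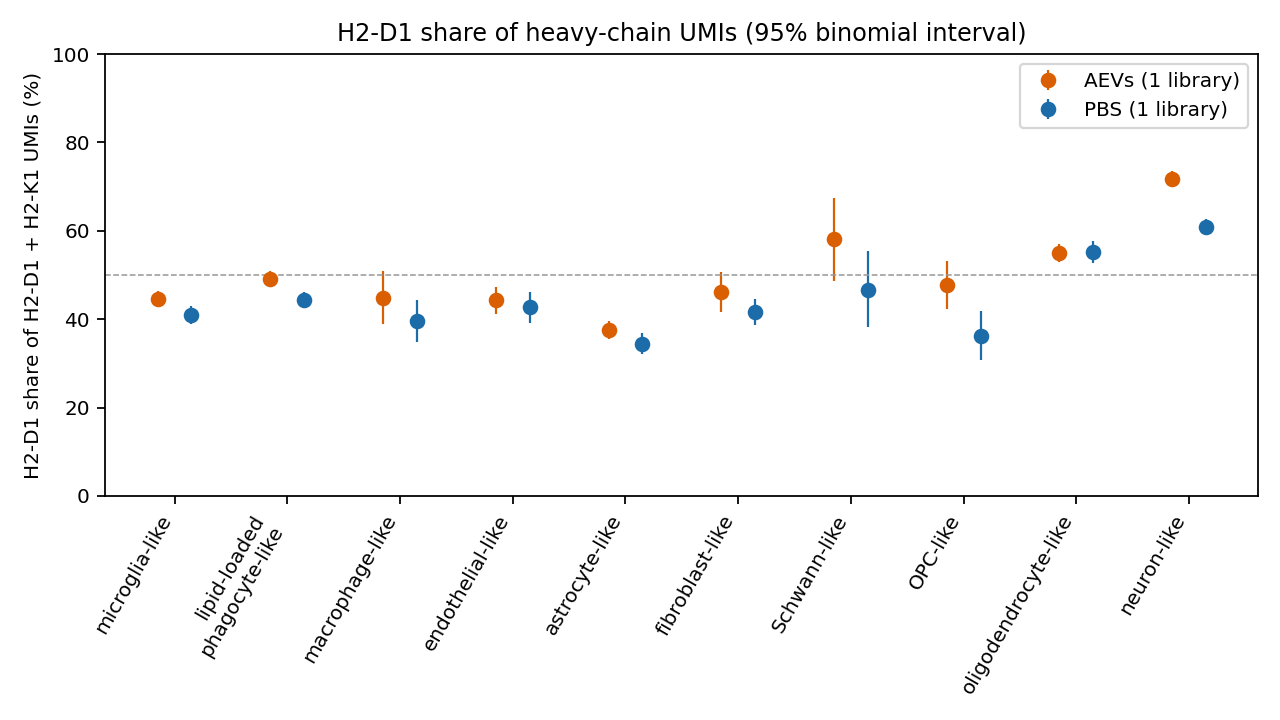
Share of H2-D1 among H2-D1 and H2-K1 UMIs (percent) in each cell class with 100 nuclei or more per library. AEVs is in orange and PBS in blue, with exact binomial 95% intervals. Neuron-like nuclei are highest in both libraries, at 71.8% in AEVs and 60.9% in PBS. Astrocyte-like nuclei are the lowest of these classes, at 37.6% in AEVs and 34.5% in PBS.

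B2m, the light chain shared by all class I molecules, was the most abundant of the 9, at 254 CPM (AEVs) and 249 CPM (PBS) over all nuclei with a log2 ratio of 0.03 (0.00 to 0.06). Microglia-like nuclei held 2620.3 CPM (AEVs) and 2396 CPM (PBS). In lipid-loaded phagocyte-like nuclei B2m was 2090.2 CPM (AEVs) against 1550.0 CPM (PBS), a ratio of 0.43 (0.36 to 0.50), close to that of H2-K1. In oligodendrocyte precursor-like nuclei it was 261 against 189.7 CPM, a ratio of 0.46 (0.25 to 0.68). In oligodendrocyte-like nuclei, where both heavy chains were higher in the AEVs library, B2m was 173 CPM (AEVs) and 172 CPM (PBS), a ratio of 0.01 (-0.08 to 0.09). In fibroblast-like nuclei it was 400.2 against 519 CPM, a ratio of -0.38 (-0.53 to -0.22), and in neuron-like nuclei 53.8 against 65.9 CPM, a ratio of -0.29 (-0.37 to -0.21).

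The transporter and loading genes were far below B2m and carry wider intervals. Tap1 stood at 5.74 CPM (AEVs) and 5.21 CPM (PBS) over all nuclei and Tap2 at 16.5 and 14.6 CPM. Tap1 was higher in the AEVs library in lipid-loaded phagocyte-like nuclei, at 43.9 CPM (79 UMIs) against 22.4 CPM (51 UMIs), with a log2 ratio of 0.97 (0.44 to 1.51), and in microglia-like nuclei at 51.1 against 34.8 CPM, with a ratio of 0.55 (0.04 to 1.08). Tap2 was higher in neuron-like nuclei, at 10.7 against 7.68 CPM with a ratio of 0.48 (0.28 to 0.69), and in oligodendrocyte precursor-like nuclei, at 36 against 25 UMIs with a ratio of 0.98 (0.20 to 1.78). Tapbp, which encodes tapasin, stood at 24.98 CPM (AEVs) and 21.03 CPM (PBS) over all nuclei, a ratio of 0.25 (0.15 to 0.35). Its ratio was 0.65 (0.48 to 0.82) in neuron-like nuclei, at 16.2 against 10.4 CPM, and 0.51 (0.23 to 0.80) in lipid-loaded phagocyte-like nuclei, at 121 against 84.9 CPM. Within the neuron-like class the assembly genes Tap2 and Tapbp and the heavy chain H2-D1 were thus higher in the AEVs library while H2-K1 and B2m were lower, and the last pair turned when called doublets were kept. Tap1 and Psmb9 overlap on opposite strands by 212 bases, Tapbp overlaps Zbtb22 on the same strand and B2m lies within Patl2 on the opposite strand; whether the counting used strand is not given in the sources used here, so UMIs of these neighbours may be mixed.

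Psmb8 and Psmb9 replace the constitutive catalytic subunits Psmb5 and Psmb6 in the immunoproteasome. Psmb8 stood at 7.72 CPM (AEVs) and 7.63 CPM (PBS) over all nuclei, a log2 ratio of 0.02 (-0.16 to 0.19), and Psmb9 at 5.08 and 5.39 CPM, a ratio of -0.09 (-0.30 to 0.13). Psmb8 made up 55.4% (47.9 to 62.7) of Psmb8 and Psmb5 UMIs in AEVs microglia-like nuclei and 55.6% (46.8 to 64.2) in PBS microglia-like nuclei, against 2.04% (AEVs) and 2.57% (PBS) in neuron-like nuclei. Microglia-like Psmb9 was 58.5 CPM (AEVs, 94 UMIs) against 39.3 CPM (PBS, 61 UMIs), a ratio of 0.58 (0.10 to 1.06). Astrocyte-like Psmb8 was 20.3 CPM (AEVs, 85 UMIs) against 11.3 CPM (PBS, 44 UMIs), a ratio of 0.85 (0.31 to 1.41). Fibroblast-like nuclei went the other way. Their Psmb8 was 9.13 CPM (AEVs, 11 UMIs) against 28.9 CPM (PBS, 69 UMIs), a ratio of -1.66 (-2.73 to -0.74), and the Psmb8 share of Psmb8 and Psmb5 was 12.9% (6.64 to 22.0, AEVs) and 32.4% (26.2 to 39.1, PBS). The third inducible subunit, Psmb10, which is no member of the 9, made up 24% (16.8 to 32.5) and 42.5% (36.3 to 48.9) of the sum with its counterpart Psmb7 in AEVs and PBS fibroblast-like nuclei.

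Nlrc5, the transactivator of the class I genes, was the one member whose ratio over all nuclei lay below 0 beyond counting error, at 11.4 CPM (AEVs, 774 UMIs) against 14.996 CPM (PBS, 1096 UMIs), a log2 ratio of -0.40 (-0.53 to -0.27). Lipid-loaded phagocyte-like nuclei were a class where Nlrc5 was 82.8 CPM (AEVs, 149 UMIs) against 123 CPM (PBS, 280 UMIs), a ratio of -0.57 (-0.87 to -0.28), while H2-D1, H2-K1, B2m, Tap1 and Tapbp were all higher in the AEVs library. The intervals of the other 3 genes there included 0, at 0.24 for Tap2, 0.39 for Psmb8 and -0.12 for Psmb9. The ratio was below 0 in each of that class's 2 larger clusters, at -0.46 (-0.80 to -0.12) in a cluster of 784 and 648 nuclei and -1.38 (-2.21 to -0.63) in a cluster of 164 and 386 nuclei (AEVs and PBS, finer clustering). In neuron-like nuclei the Nlrc5 ratio was -0.58 (-1.02 to -0.14), from 71 AEVs UMIs and 114 PBS UMIs. Microglia-like nuclei had 95.9 CPM (AEVs) and 78.6 CPM (PBS), a ratio of 0.29 (-0.06 to 0.64), and oligodendrocyte-like nuclei 13.9 and 15.2 CPM, a ratio of -0.14 (-0.44 to 0.17). T or NK cell-like nuclei had the highest Nlrc5 level, at 340.1 CPM (AEVs) and 533 CPM (PBS); they made up 0.193% of AEVs nuclei and 0.977% of PBS nuclei. The part of that difference in the all-nuclei Nlrc5 ratio was not tested.

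**Figure D3:**
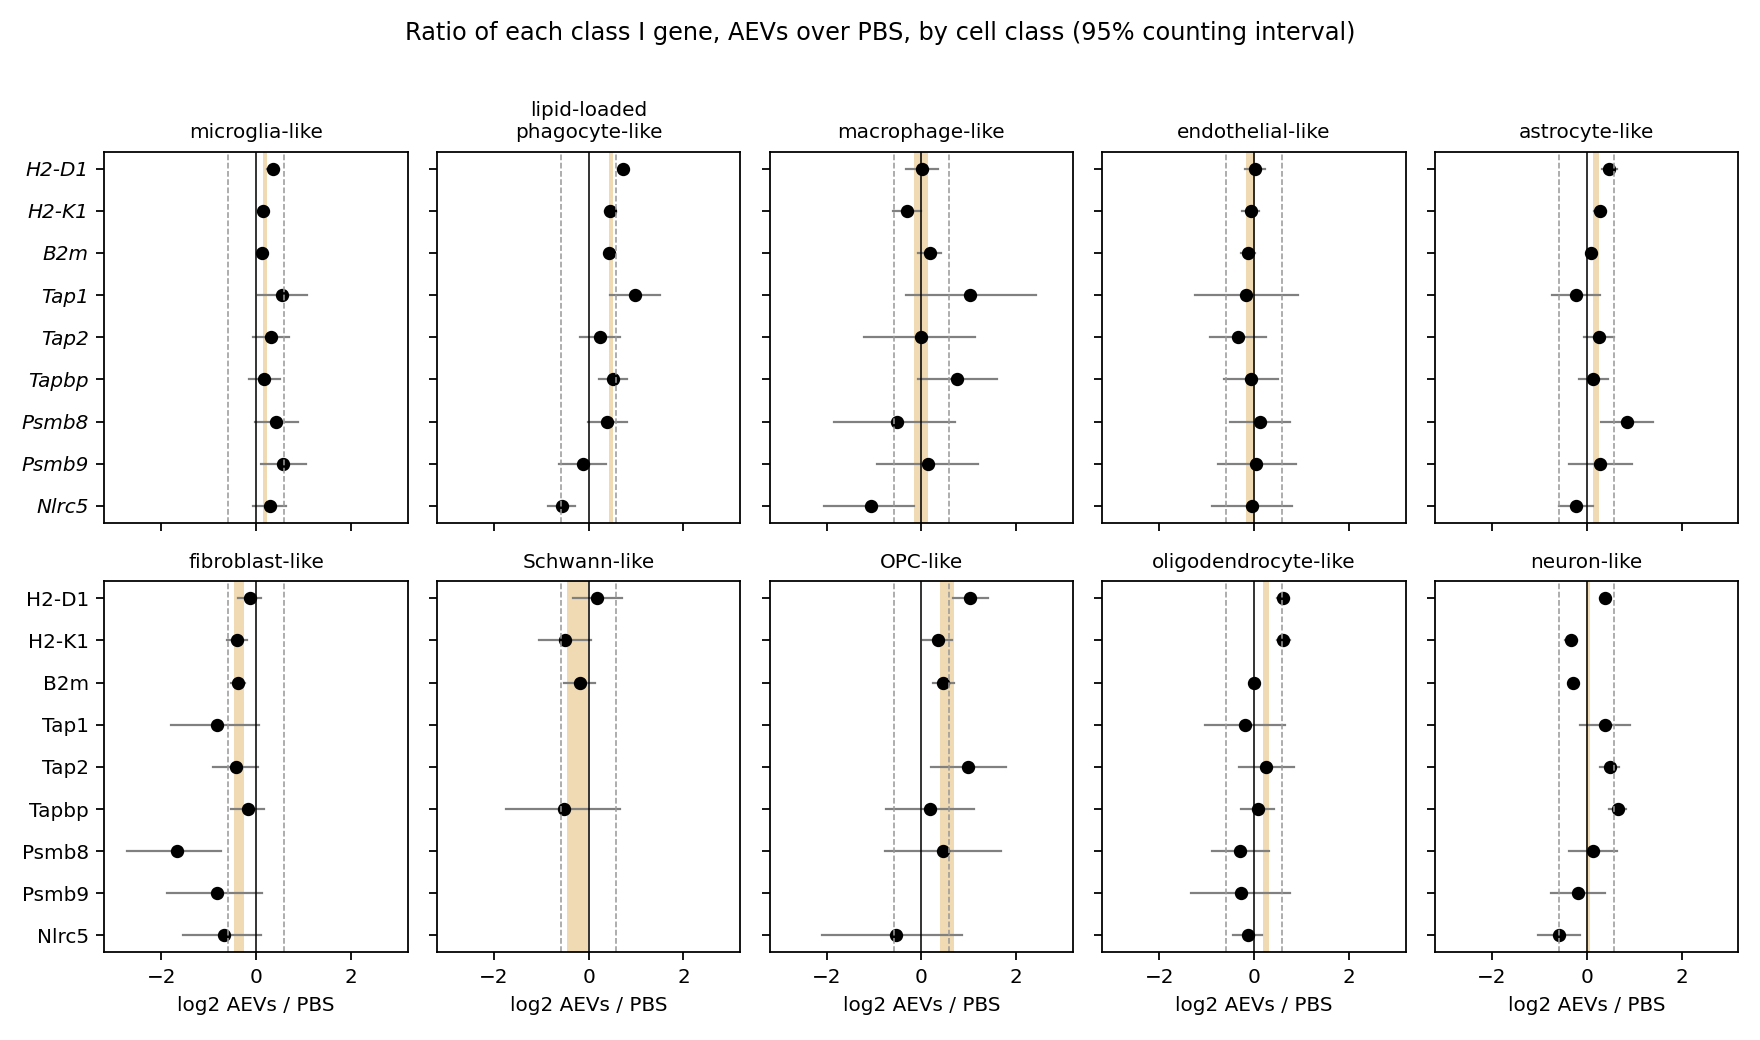
Log2 ratio of AEVs over PBS for each of the 9 genes whose 2 libraries together held 20 UMIs or more, in 10 cell classes; lines are 95% intervals, the band is the interval of the 9 genes summed and dashed lines mark 1.5-fold. All 9 genes lie above 0 in microglia-like nuclei and all 9 lie below 0 in fibroblast-like nuclei. The line of Nlrc5 in microglia-like nuclei crosses 0.

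Taken by class, microglia-like and lipid-loaded phagocyte-like nuclei had higher class I sums in the AEVs library. In microglia-like nuclei all 9 genes were above 0, beside 56.6% of all genes measured in that class. Not all were so beyond counting error, as the Nlrc5 interval included 0. The median log2 ratio of the 9 was 0.32 against 0.08 for all genes. None passed 1.5-fold, beside 15.9% of all genes higher by that fold and 7.53% lower. In lipid-loaded phagocyte-like nuclei H2-D1 and Tap1 were higher by 1.5-fold or more and no gene was lower, beside 14.3% of all genes higher and 9.89% lower, and the median was 0.43 against 0.05 for all genes. The summed ratios were 0.19 (0.14 to 0.24) in microglia-like and 0.47 (0.42 to 0.51) in lipid-loaded phagocyte-like nuclei. In a finer clustering the microglia-like nuclei fell into a cluster of 869 AEVs and 909 PBS nuclei and a cluster of 206 AEVs and 35 PBS nuclei. The smaller one held 5389 CPM (AEVs) and 5853 CPM (PBS) of class I, with Nlrc5 at 213 and 402 CPM, and its summed level of 20 interferon-stimulated genes was 4606 CPM (AEVs) and 6053 CPM (PBS). The larger held 4810.2 CPM (AEVs) and 4247 CPM (PBS) of class I, a ratio of 0.18 (0.13 to 0.23), with interferon-stimulated genes at 1558 and 806 CPM. By gene, H2-D1 and B2m were higher in the AEVs library in both clusters. Each other gene of the 9 was higher in 1 cluster and lower in 1. Both clusters thus entered the class in unequal numbers, and the part of that in the microglia-like ratios was not tested. The finer clustering gave 3 lipid-loaded phagocyte-like clusters, each with more class I in the AEVs library. The largest, of 784 AEVs and 648 PBS nuclei, held 4702 and 3702 CPM. A cluster of 164 AEVs and 386 PBS nuclei held 2883 and 2091 CPM, and 1 of 18 and 41 nuclei held 9938 and 6357 CPM. The part of this unequal mix in the phagocyte-like ratios was not tested. Markers of oligodendrocytes in lipid-loaded phagocyte-like nuclei were 976 CPM (AEVs) and 1584 CPM (PBS), with none of the 10 at 0 in either library, and their part in these ratios was not tested.

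Oligodendrocyte precursor-like nuclei had the highest summed ratio of the 10 classes, 0.54 (0.39 to 0.69), with 784 AEVs UMIs and 739 PBS UMIs. Of their 7 measured genes, H2-D1 and Tap2 were higher by 1.5-fold or more, beside 12.6% of all genes, and none was lower, beside 9.96%. H2-K1 was at 0.35 (0.04 to 0.65), below the ratio of H2-D1. Markers of differentiating oligodendrocytes in these nuclei were 2471 CPM (AEVs) and 3898 CPM (PBS) and those of oligodendrocytes 1979 and 3275 CPM, none at 0, while precursor markers were 18570 and 18526 CPM; the part of this makeup in the ratios was not tested. Oligodendrocyte-like nuclei had a summed ratio of 0.26 (0.20 to 0.32); H2-D1 and H2-K1 passed 1.5-fold, beside 17% of all genes higher, and none of the 9 was lower, beside 6.89%. Scaling by the median gene lowers every ratio of that class by 0.12, and H2-D1 and H2-K1 then no longer pass 1.5-fold. A cluster of 21 AEVs and 22 PBS oligodendrocyte-like nuclei led by Ifi27l2a, Herc6 and Oasl2 held 3039 CPM (AEVs) and 4186 CPM (PBS) of class I, while the other clusters of the class held 343 to 413 CPM (AEVs) and 258 to 364 CPM (PBS). Without that cluster the summed ratio was 0.31. Microglia markers in oligodendrocyte-like nuclei were 119 CPM (AEVs) and 120.2 CPM (PBS), and lipid-loaded phagocyte markers were 361 and 553 CPM, none of either list being at 0. In nuclei with no UMI of either list, 2455 (AEVs) and 1226 (PBS), the H2-D1 ratio was 0.62 and the H2-K1 ratio 0.98. In the precursor-like class, 178 AEVs and 202 PBS nuclei had no such UMI, and the ratio was 0.77 for H2-D1 and 0.51 for the sum.

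Astrocyte-like nuclei had a summed ratio of 0.20 (0.14 to 0.26), with Psmb8 the 1 gene past 1.5-fold, beside 10.3% of all genes higher and 6% lower. Their cluster led by Lcn2, Vim and Gfap, genes of reactive astrocytes, held more class I than the rest, at 1875 CPM (AEVs) and 1407 CPM (PBS), against 1169 and 1049 CPM in the other cluster. Lipid-loaded phagocyte markers in the astrocyte-like class were 1077 CPM (AEVs) and 899 CPM (PBS), with none of the 10 at 0. Among the 180 AEVs and 167 PBS astrocyte-like nuclei without a UMI of those or of microglia markers, the summed ratio was -0.10. H2-D1 was at -0.14, B2m at -0.57 and Tap1 at -0.97 in them, with H2-K1 at 0.52 and Psmb8 at 1.03. The sum, H2-D1 and B2m thus had the other sign in this small subset than in the whole class. A nucleus with few UMIs is more likely to hold no marker UMI, and the depth of the subset was not compared. Whether those marker UMIs came from other cells was not tested, so no conclusion is drawn from the subset. The same limits apply to the oligodendrocyte-like and precursor-like subsets above.

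Fibroblast-like nuclei were the class in which all 9 genes were lower in the AEVs library. The summed level was 971 CPM (AEVs, 1170 UMIs) against 1248 CPM (PBS, 2975 UMIs), a ratio of -0.36 (-0.46 to -0.26). Tap1, Psmb8, Psmb9 and Nlrc5 were lower by 1.5-fold or more, beside 10.7% of all genes lower and 14.5% higher, and the median was -0.42 against 0.08 for all genes. None of these 4 reached 100 UMIs in both libraries together. T or NK cell markers in these nuclei were 9.13 CPM in the AEVs library (11 UMIs, 4 of the 10 markers at 0) and 60.8 CPM in the PBS library (145 UMIs, none at 0). In the 522 AEVs and 903 PBS fibroblast-like nuclei without a UMI of those markers the summed ratio was -0.40 and the Psmb8 ratio -1.64, beside -0.36 and -1.66 in the whole class. Markers of mural cells were 984 CPM (AEVs) and 497 CPM (PBS), none at 0, and those of fibroblasts 8676 and 10040.1 CPM, and their part in these ratios was not tested. In the finer clustering the largest difference was in a cluster of 104 AEVs and 299 PBS nuclei led by Bnc2, Itgbl1 and Col3a1, with 791 against 1280.2 CPM of class I and a ratio of -0.69 (-0.88 to -0.51). A cluster of 250 AEVs and 206 PBS nuclei led by Slc7a11 and Ranbp3l held 1025 and 1057 CPM, a ratio of -0.04 (-0.22 to 0.13). The other 2 clusters held 1373 CPM in 123 AEVs nuclei against 1524 CPM in 408 PBS nuclei, and 702 CPM in 72 AEVs nuclei against 667 CPM in 89 PBS nuclei. By gene, H2-D1, Tap2 and Tapbp were lower in 2 of the 4 clusters and Psmb8 in all 4, and the clusters held different shares of each library's nuclei.

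Neuron-like nuclei had equal sums in the libraries, 152 CPM (AEVs) and 149.9 CPM (PBS), a ratio of 0.02 (-0.03 to 0.07). Tapbp was the 1 gene past 1.5-fold, higher in the AEVs library, beside 12.4% of all genes higher and 7.56% lower. That equality was made of unlike parts. In the main clustering the class I sum was higher in the AEVs library in 7 of 9 neuron-like clusters. In the finer clustering it was higher in 14 of 16 neuron-like clusters, with H2-D1 higher in 13 and Tapbp in 15. Those 16 clusters also hold nuclei outside the neuron-like class of the main clustering, so they are no exact breakdown of its sum. The cluster with the largest difference between the libraries, singled out after its values were seen, ran the other way. It is led by Nrg1 and Grip1 and holds the cholinergic markers Chat (choline acetyltransferase) and Slc5a7 (the choline transporter) at 187 and 193 CPM in AEVs nuclei, against 80.2 and 83.9 CPM in PBS nuclei. In its 86 AEVs and 147 PBS neuron-like nuclei, H2-K1 was 21.9 CPM (AEVs, 45 UMIs) against 80.6 CPM (PBS, 413 UMIs), H2-D1 38.5 against 75.2 CPM, and B2m 78.9 against 182 CPM. Psmb8 had 1 UMI in the AEVs nuclei and 27 in the PBS nuclei. Sprr1a, a gene of axon injury, was 82.3 CPM (AEVs) and 145 CPM (PBS), and Atf3, another, 16.1 and 18.5 CPM.

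The class I UMIs of this cluster were unevenly spread over its nuclei. The 10 nuclei with the most held 48.7% (AEVs) and 44.5% (PBS) of the cluster's class I UMIs, and the highest single nucleus held 44 UMIs (AEVs) and 188 UMIs (PBS). The median nucleus was at 141 CPM of class I (AEVs, quartiles 41.2 and 253) and 184 CPM (PBS, quartiles 0 and 482). The medians are closer than the sums over the cluster, 172 CPM (AEVs, 86 nuclei) and 394 CPM (PBS, 149 nuclei, 2 of them outside the neuron-like class). The median depth of its nuclei was 15651 UMIs (AEVs) and 18059 UMIs (PBS). Among nuclei with a Chat UMI, 53 (AEVs) and 70 (PBS), the class I sum was 149.8 CPM (132 to 169.8) in AEVs and 306 CPM (286 to 327) in PBS. Among nuclei without one, 33 and 77, it was 256 CPM (210.2 to 308) in AEVs and 502 CPM (473 to 532) in PBS. These intervals pool nuclei of 1 library per group and cover counting error only. In the other 4541 AEVs and 3468 PBS neuron-like nuclei the sum was higher in the AEVs library by 0.34 (log2), H2-D1 was 47.5 against 31.2 CPM, and H2-K1 was 18.3 against 15.9 CPM. With those nuclei alone the H2-K1 ratio was 0.20 and the B2m ratio 0.04, beside the negative ratios with the Nrg1 and Grip1 cluster counted. That cluster was chosen for its low ratio of the class I sum, a choice that favours higher ratios in the rest, so no conclusion is drawn from this. The negative ratios over all neuron-like nuclei also turned when doublet calls were kept, to 0.48 for H2-K1, 0.27 for B2m and 0.20 for Nlrc5. Oligodendrocyte markers in neuron-like nuclei were 537 CPM (AEVs) and 952 CPM (PBS) and microglia markers 85.1 and 116 CPM, none at 0, and their part was not tested.

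The remaining 3 classes gave less. Endothelial-like nuclei had a summed ratio of -0.07 (-0.17 to 0.02) and no gene past 1.5-fold, beside 13.6% of all genes higher and 8.59% lower. Schwann-like nuclei had a ratio of -0.23 (-0.47 to -0.01) from 281 AEVs and 358 PBS UMIs, with 4 genes measured and none past 1.5-fold, beside 15.6% higher and 13.3% lower. Macrophage-like nuclei had a ratio of -0.01 (-0.16 to 0.14); Tap1 (13 AEVs and 9 PBS UMIs) and Tapbp (29 and 24 UMIs) were higher and Nlrc5 (14 and 41 UMIs) lower by 1.5-fold or more, beside 16.2% of all genes higher and 17.9% lower. In that class erythroid markers were 16796 CPM (AEVs) and 609 CPM (PBS), dendritic markers 48.6 and 443 CPM, and T or NK cell markers 27.0 and 154 CPM, so its makeup differed between the libraries; the part of this in its ratios was not tested. Over the 10 classes, 10 of 83 measured pairs of gene and class were higher in the AEVs library by 1.5-fold or more and 5 were lower. Those counts are near the background of the classes, in which 10.3 to 17% of all genes were higher and 6 to 17.9% lower.

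The share of nuclei with an H2-D1 UMI was compared after thinning each nucleus to 1000 UMIs. It was 53.2% (49.9 to 56.4) in AEVs microglia-like nuclei against 43.6% (40.2 to 47.0) in PBS ones, and 9.41% (8.63 to 10.2) against 6.43% (5.72 to 7.20) in oligodendrocyte-like nuclei. In neuron-like nuclei, the class with the lowest class I level, it was 4.60% (3.998 to 5.25) in AEVs and 3.999% (3.37 to 4.71) in PBS. Unthinned, the shares were 64.6% and 58.7% in microglia-like, 17.9% and 14.1% in oligodendrocyte-like and 31.3% and 28.5% in neuron-like nuclei, AEVs then PBS. In both libraries the microglia-like and oligodendrocyte-like shares were above the neuron-like share at equal depth. Free RNA was not measured, and its part in these shares was not tested.

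The other genes of the pathway were read from lists of interferon-stimulated genes, nonclassical class I genes, loading factors and regulators. Of the 20 interferon-stimulated genes, 14 of 19 measured were higher by 1.5-fold or more and 0 lower in microglia-like nuclei, with a median log2 ratio of 1.14. Of all genes in that class, 15.9% were higher and 7.53% lower by that fold. Oasl2, an antiviral gene of the oligoadenylate synthetase family, had 466 AEVs UMIs and 93 PBS UMIs there, a ratio of 2.28 (1.95 to 2.61), and Irf7, the interferon-amplifying factor, had 82 and 17 UMIs. In lipid-loaded phagocyte-like nuclei 14 of 19 were higher and 0 lower, with a median of 1.19, beside 14.3% of all genes higher and 9.89% lower. In oligodendrocyte precursor-like nuclei 13 of 17 were higher and 0 lower, with a median of 1.54, beside 12.6% of all genes higher and 9.96% lower. Usp18, the protease that removes ISG15, was at a ratio of 2.09 (1.65 to 2.56) in the phagocyte-like and 2.58 (1.72 to 3.53) in the precursor-like nuclei. The 3 classes whose interferon-stimulated genes had the highest medians thus also had class I sums above 0, with far smaller ratios for class I. Medians in astrocyte-like, oligodendrocyte-like, macrophage-like and endothelial-like nuclei were 0.45, 0.45, 0.39 and 0.19. The class I sums of these classes were at 0.20, 0.26, -0.01 and -0.07 in that order. Whether interferon-stimulated and class I genes go together was not tested. Fibroblast-like nuclei, whose class I genes were all lower, had 5 of 20 interferon-stimulated genes higher and 2 lower, with a median of 0.26. Of all genes in that class, 14.5% were higher and 10.7% lower. Ifit3 stood at 1.05 (0.61 to 1.48) there, while Iigp1 and Gbp2, GTPases that respond to interferon gamma, stood at -0.999 (-1.50 to -0.53) and -0.68 (-1.26 to -0.13). Iigp1 and Gbp2 were also the lowest of the list over all nuclei, at -0.62 and -0.55, and Oasl2 the highest, at 1.09. None of the 6 interferon genes looked up reached 20 UMIs over both libraries.

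**Figure D4:**
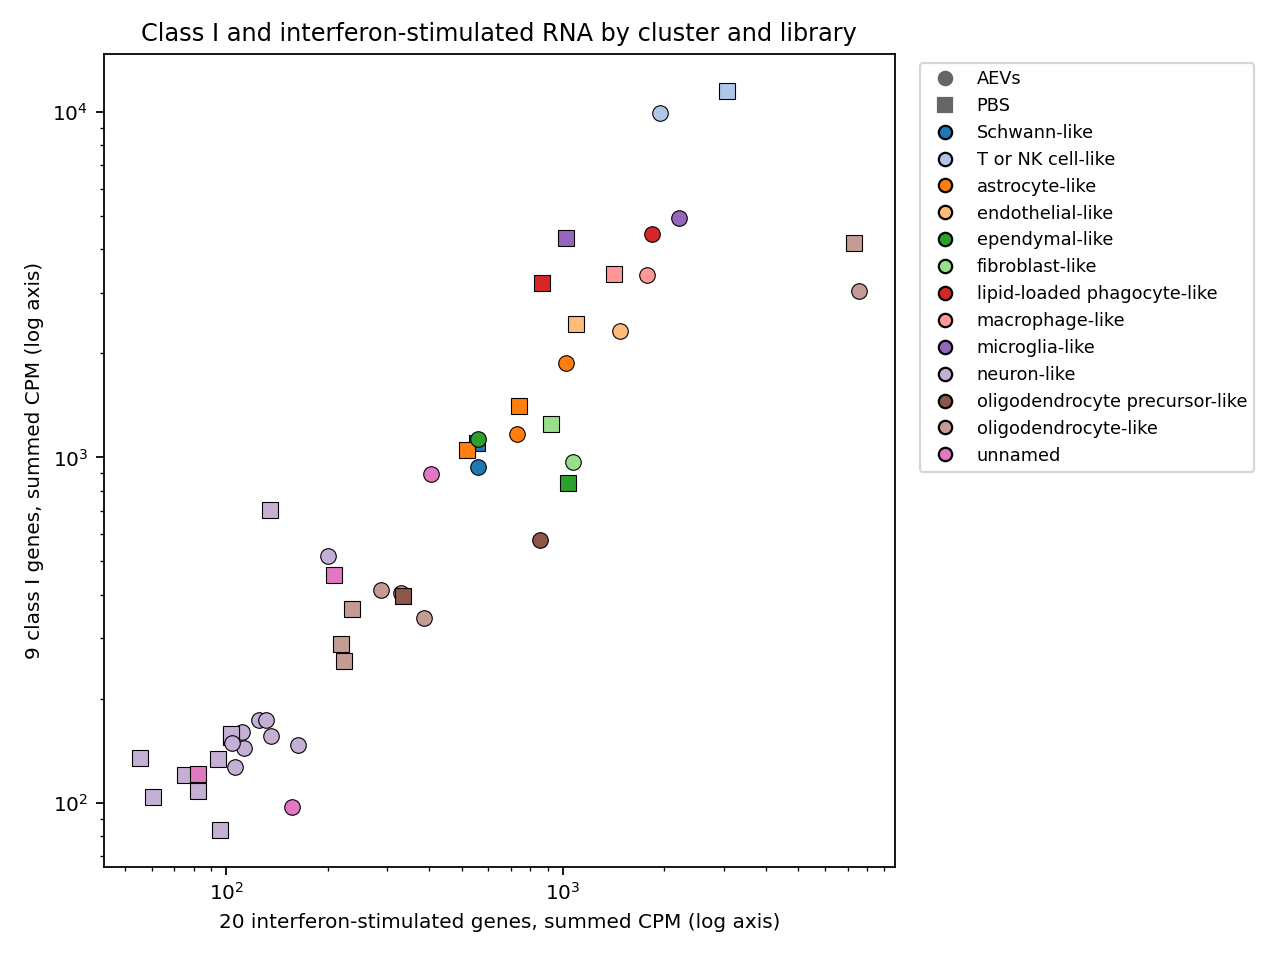
Summed level of 20 interferon-stimulated genes (x, CPM, log axis) against the summed level of the 9 class I genes (y, CPM, log axis) in each cluster with at least 20 nuclei in the library; circles are AEVs and squares are PBS. The interferon-led oligodendrocyte-like cluster stands far to the right of the rest of its class in both libraries, at 7576 CPM in AEVs and 7330.0 CPM in PBS, and also holds more class I.

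Among the nonclassical class I genes, H2-T23 (Qa-1, a ligand of NKG2A on natural killer cells) was higher in the AEVs library in oligodendrocyte-like nuclei, at 202 against 79 UMIs with a ratio of 1.33 (0.95 to 1.72), and in precursor-like nuclei at 1.66 (0.78 to 2.61). H2-Q7 was lower over all nuclei, at 4.38 CPM (AEVs) against 8.96 CPM (PBS), a ratio of -1.03 (-1.24 to -0.83), and in lipid-loaded phagocyte-like nuclei at -1.01 (-1.66 to -0.40). Of 13 such genes measured over all nuclei 3 were higher and 2 lower by 1.5-fold or more. Of all genes, 12.5% were higher and 6.11% lower by that fold over all nuclei. None of 9 loading and trimming factors passed that fold over all nuclei; Calr (calreticulin, the chaperone of new heavy chains) stood lowest at -0.43 (-0.47 to -0.38), and in fibroblast-like nuclei at -0.95 (-1.19 to -0.72). Psme1, a subunit of the interferon-induced proteasome activator, was at 0.53 (0.44 to 0.62) over all nuclei and 0.72 (0.37 to 1.08) in microglia-like nuclei. Of 17 regulators, Irf1 (a direct activator of class I promoters) was highest in microglia-like nuclei, with 79 AEVs UMIs and 23 PBS UMIs and a ratio of 1.73 (1.05 to 2.47), and Stat2 followed at 1.30 (1.01 to 1.60). Ciita, the class II counterpart of Nlrc5, was at -1.52 (-2.07 to -0.99) over all nuclei, from 40 AEVs and 123 PBS UMIs. Of the genes that read class I on other cells, 5 of 7 measured over all nuclei were lower by 1.5-fold or more, beside 6.11% of all genes. Cd8a had 17 AEVs and 81 PBS UMIs, beside the smaller number of T or NK cell-like nuclei in the AEVs library.

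Across the 10 classes and both libraries (20 points, log2 of CPM plus 10) the class I genes had like profiles. Pearson's r was 0.98 between H2-K1 and B2m, 0.97 between H2-D1 and H2-K1, and 0.97 between H2-D1 and B2m, as a description of points that share libraries and depth. The genes most like H2-K1 were Bst2 (tetherin, an antiviral membrane protein; r = 0.96) and Eef2kmt (r = 0.95), and those most like B2m were Cflar (an inhibitor of caspase-8; r = 0.96) and Bst2. The 5 genes most like H2-D1 were Fau, Rpl10, Rpl23, Rps29 and Rack1 (r = 0.97 each), all of the ribosome, whose protein genes were themselves higher in the AEVs library. For Tap1 the nearest gene was Trim30a, for Psmb8 Apobec3 and for Nlrc5 Atp7a, at r = 0.96, 0.97 and 0.95.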

How the data were processed

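The authors deposited raw UMI counts per gene and barcode, 1 matrix per library, made from nuclei of frozen cord with a droplet 3′ kit, per the labels' protocols; the submitters' processing notes name mm10 and Seurat. What aligned the reads, the gene annotation, the use of strand and whether ambient RNA was removed: not given in the sources used here. From these counts, nuclei with at least 300 genes and 500 UMIs and under 5% mitochondrial UMIs were kept, and doublets called by Scrublet within scanpy 1.11.5 were removed, 1400 AEVs barcodes (8.26%) and 771 PBS barcodes (5.21%). Nuclei were clustered with Leiden (leidenalg 0.10.2, resolution 1 and, for the finer clustering, 2; 30 principal components; 2000 variable genes per library, without the 9 class I genes). A cluster was named where at least 3 markers of a class were at 2-fold or more of their mean over clusters and at 5 CPM or more, and no other class had more markers among its top 10 genes; this scoring was set after seeing the data. A ratio needed 20 UMIs in both libraries together. With 1 library per group there is no test. The ratios and their intervals were tried on simulated counts with known folds (Python 3.11.15, scipy 1.17.1). Those counts held counting error only, so the trial says nothing of the spread between nuclei, clusters or mice. TMM scaling used edgeR 4.0.16. All 9 genes are named in each class described where the counts allow; from other lists, the 2 highest and 2 lowest may be named, and genes most alike by Pearson's r. The 9 genes and all lists were chosen with earlier results of these data known. Alternatives covered scaling, filters, doublets, clustering, thinning and the fold.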

Additional observations from a re-analysis of the deposited data

How the results depend on the processing

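No paired analysis was possible because each group is 1 library. Of 1075 recomputed ratios over 103 results, 978 stayed within the counting interval and 97 did not. These are ratios of single genes and of H2-D1 and H2-K1 together, without the sums of the 9 genes. No ratio past 1.5-fold changed sign. With the sums of the 9 genes counted as well, 22 recomputed values of 12 ratios whose interval excludes 0 changed sign. Over all nuclei these were the sum, H2-K1 (-0.0447 median ratio, -0.0464 TMM, -0.0489 mean over nuclei, -0.0782 thinned), B2m (-0.0601, -0.0617, -0.0357 and -0.0345 in that order), Tap2 (-0.0492, mean over nuclei) and Tapbp (-0.0487, mean over nuclei; -0.0153, thinned). By class they were the Schwann-like sum, the astrocyte-like sum, H2-D1 (-0.14) and B2m (-0.57) without nuclei holding another cell's marker UMI, and in neuron-like nuclei H2-K1, B2m and Nlrc5 (0.48, 0.27 and 0.20 with doublets kept) and H2-K1 and B2m without the Nrg1 and Grip1 cluster (0.20 and 0.04). The summed ratio over all nuclei was 0.0133 with median-ratio scaling, 0.0117 with TMM, -0.00900 as a mean over nuclei, 0.13 with stricter filters, 0.14 with doublet calls kept, -0.00313 when thinned and 0.18 with the same mix of clusters, so its direction is not fixed by these data. The neuron-like sum was -0.0733 with median-ratio scaling, -0.0680 with TMM, 0.12 with stricter filters, 0.50 with doublets kept, 0.11 when thinned and 0.34 without the Nrg1 and Grip1 cluster. The astrocyte-like sum was 0.14 (TMM), 0.29 (stricter), 0.44 (doublets kept) and -0.10 without nuclei holding another cell's marker UMI. The oligodendrocyte-like sum was 0.14 (median ratio), 0.12 (TMM), 0.35 (thinned) and 0.41 without such nuclei. Other sums that left their interval were microglia-like 0.13 (TMM), fibroblast-like -0.47 (TMM), lipid-loaded phagocyte-like 0.69 (no mitochondrial limit), endothelial-like 0.0799 (thinned) and Schwann-like 0.0873 (mean over nuclei). The macrophage-like sum was -0.44 (no mitochondrial limit), -0.37 (doublets kept) and -0.40 (class I genes among the variable genes). The causes of these shifts were not tested. Counts past 1.5-fold were 16 higher as a mean over nuclei and 2 at 2-fold; lower, they were 8 with TMM, 9 with stricter filters, 8 with no mitochondrial limit, 0 with at least 100 UMIs and 2 at 2-fold. Thinned to 500 UMIs, the H2-D1 shares were 33.1% (AEVs) and 27.3% (PBS) in microglia-like, 5.68% and 3.71% in oligodendrocyte-like, and 2.44% and 1.83% in neuron-like nuclei; unthinned they were 64.6% and 58.7%, 17.9% and 14.1%, and 31.3% and 28.5%. Leaving out shared barcodes, an interferon-led cluster, a neuron cluster or nuclei with other cells' markers was chosen after seeing the data. With 1 pool of 3 mice per group, differences between mice are unknown, and ratios on few UMIs (Tap1, Psmb8, Psmb9 and Nlrc5 outside the large classes) have wide intervals.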

Other observations

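Ependymal-like nuclei, too few for the comparisons above, numbered 92 (AEVs) and 99 (PBS). Their class I sum was 1127 CPM (AEVs, 448 UMIs) and 845 CPM (PBS, 459 UMIs), with H2-D1 at 211 and 129 CPM. T or NK cell-like nuclei, 30 (AEVs) and 137 (PBS), held H2-K1 at 4033 CPM (AEVs) and 4558 CPM (PBS), above B2m at 3029 and 3587 CPM; in the 10 larger classes B2m was above H2-K1 in both libraries. Psmb8 made up 70.0% (AEVs) and 78.5% (PBS) of Psmb8 and Psmb5 UMIs in these nuclei, the highest share of any named class. A lipid-loaded phagocyte-like cluster of 18 AEVs and 41 PBS nuclei in the finer clustering, singled out after its values were seen, had H2-D1 at 3379.9 CPM (AEVs, 67 UMIs) and 870.1 CPM (PBS, 49 UMIs), while B2m was 4389 and 3978 CPM. A neuron-like cluster led by Nefh, Nefm and Prph, with 103 AEVs and 198 PBS nuclei at a low median depth of 1065 UMIs, held 517 CPM (AEVs) and 704 CPM (PBS) of class I, above every other neuron-like cluster of the main clustering in both libraries.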
